A study of Mus musculus with 90 samples.

Results

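The genes described here encode the first steps of insulin signaling in the liver, namely the insulin receptor (Insr), the receptor substrates Irs1 and Irs2, the regulatory subunit of phosphoinositide 3-kinase (Pik3r1), the kinases Akt1 and Akt2, and the transcription factors Foxo1, Foxo3, and Foxo4. They were taken by symbol and make up 9 of the 24308 gene symbols in the RNA table. A symbol with several RefSeq IDs was represented by the ID with the highest mean over all libraries, which applied to 4 of the 9 genes, and all 9 passed the filter on low values in each experiment. RNA was measured in 54 mouse livers, 1 mouse per library, in 5 experiments on night-restricted feeding (NRF), a routine in which food is present during the dark phase only.

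Insulin binds its receptor, a tyrosine kinase that phosphorylates IRS1 and IRS2. The phosphorylated substrates recruit phosphoinositide 3-kinase through its regulatory subunit, and the lipid it makes leads to activation of AKT. AKT phosphorylates FOXO proteins, which keeps them out of the nucleus, and in hepatocytes FOXO1 drives genes of glucose production and Irs2 itself when insulin is low.

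The labels give C57BL/6 or a C57BL/6 background for all mice, and the study's methods give C57BL/6N for the NRF, injected, and GR fl/fl mice and C57BL/6J for the IRSdKO mice. In the first experiment, wild type mice were unfed at ZT10 (hours after lights on), unfed at ZT14, or fed at ZT14, with 2 mice per group and ribosomal RNA depleted. The other experiments used poly(A) enriched RNA and livers taken at ZT14. Injected wild type mice received vehicle (PBS), dexamethasone (dex, a synthetic glucocorticoid) at 1 mg/kg, S961 (a peptide antagonist of the insulin receptor) at 44 nM/mouse by the labels and 44 nmol/kg by the study's methods, or dex and S961 together, before the meal, with 4 mice per group. Of these, the unfed mice received PBS, and fed mice received PBS or 1 of the 3 treatments. GR fl/fl mice carry floxed alleles of Nr3c1, the gene of the glucocorticoid receptor (GR). All 8 were unfed, and 4 had been given an adeno-associated virus with CRE and 4 one with GFP, each under the liver-specific Tbg promoter, so cells in which this promoter is silent keep the gene. IRSdKO mice carry floxed Irs1 and Irs2 alleles and Alb-Cre, which is active in the cells that express albumin. The IRSfl controls have the floxed alleles without Alb-Cre, and all 8 mice of this experiment were fed and given 1 mg/kg dex, so no mouse of either genotype is without dex. Diet-induced obese (DIO) and lean mice had 10 weeks of high-fat diet or chow before NRF, with 3 mice each per diet and feeding state. The study's methods give males aged 10 weeks for the NRF and the injected mice and 10 weeks for the IRSdKO experiment, adult GR fl/fl mice, and males aged 5 weeks at the start of the high-fat diet.

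From the smallest step between low RPKM values, and if 1 step is 1 read, 1 RPKM stood for 25.8 to 37.9 reads per kb of transcript in the NRF mice. It stood for 6.42 to 13.4 in the injected mice and 30.2 to 54.3 in the GR fl/fl mice. In the IRSdKO and obesity experiments it stood for 3.60 to 4.44 and 16.7 to 61.7. The study's supplement lists read counts for libraries of the GR fl/fl, IRSdKO, and obesity experiments. The steps imply more reads than listed in the GR fl/fl and fewer in the IRSdKO experiment, so 1 step is not 1 listed read there. In the obesity experiment the steps lie close to the listed counts. The RPKM scale of the IRSdKO experiment stood apart, with a highest gene at 674 to 914 RPKM per library, against 18853 to 60597 in the other experiments, and the 6 hepatocyte markers summed to 2103 to 2618 RPKM against 28147 to 72923. The cause was not tested, and levels are compared within experiments only. None of the 6 hepatocyte markers was at 0 in any group. The 3 skeletal muscle markers Acta1, Ckm, and Myh4 summed to 120 RPKM in ZT14-unfed replicate 2 of the NRF mice and to 0.110 to 0.403 in the other 5 libraries. In the IRSdKO experiment, IRSdKO replicate 1 stood apart in several genes given below. Values without these libraries are given beside the results they move most. Lymphocyte markers summed to at most 3.42 RPKM and adipocyte markers to at most 0.642 RPKM in any library. The 4 cholangiocyte markers summed to 3.44 to 5.43 RPKM in IRSfl and 1.65 to 2.91 in IRSdKO livers. Of the 3 pancreas markers, Ins2 and Prss1 were at 0 in all of these livers. Cela1 alone was at 19.9 to 26.2 RPKM in IRSfl and 5.07 to 12.9 RPKM in IRSdKO livers. The labels name single mice as the source of each library, and p-values measure the spread between the mice of an experiment.

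GR, FOXO1, and DNase hypersensitive site (DHS) positions came from lists that hold coordinates only, called by the authors from chromatin of pooled livers, so occupancy is not compared between conditions. By the study's account, GR and FOXO1 peaks were called in unfed mice at ZT14, and DHSs from unfed and fed mice at ZT14 combined. The presence or absence of a GR or FOXO1 peak below is therefore that of unfed livers. Within 50 kb of the start sites of the 9 genes lay 22 GR peaks, 16 FOXO1 peaks, and 89 DHSs. At least 1 GR peak lay near 7 of the 9 genes and at least 1 FOXO1 peak near 8, where 32.8% and 34.6% of 22225 protein-coding genes had one. DHSs were near all 9, as for 86.6% of the protein-coding genes. Foxo3 (chr10:41901647-41996561 in mm9, minus strand) had 6 GR peaks, all intronic, and 5 FOXO1 peaks, with 4 sites in its introns shared by both factors. Insr (chr8:3150922-3279617, minus strand) had 5 GR and 4 FOXO1 peaks, and 1 of the latter lay 120 bases downstream of its start site in an exon. Pik3r1 (chr13:102450716-102538172, minus strand) had 5 GR peaks and 1 FOXO1 peak. Irs2 (chr8:10986980-11008458, minus strand) had 3 GR and 2 FOXO1 peaks, all intergenic, with the nearest FOXO1 peak at -1429 bases from the start site (negative is upstream).

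Akt1 (chr12:113892032-113913095, minus strand) and Foxo1 (chr3:52072259-52154031, plus strand) each had 1 GR peak that overlapped 1 FOXO1 peak, and the pair near Akt1 lay in an intron of the neighbouring gene Adssl1. Akt2 (chr7:28376571-28425845, plus strand) had a FOXO1 peak 1579 and a GR peak 1964 bases into the gene, which did not overlap. Irs1 (chr1:82229676-82287991, minus strand) had no GR or FOXO1 peak within 50 kb, the nearest being 51789 and 51814 bases downstream. Foxo4 (chrX:98449867-98456212, plus strand) had a FOXO1 peak at -481 bases and no GR peak within 50 kb. Overlap by at least 1 base with a FOXO1 peak was found for 10 of the 22 GR peaks (45.5%, against 48.8% of all GR peaks), and with a DHS for 18 (81.8%, against 81.6%). By place, 15 of the 22 GR peaks were in introns and 7 between genes. Of the 16 FOXO1 peaks, 10 were in introns, 5 between genes, and 1 in an exon.

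**Figure D1:**
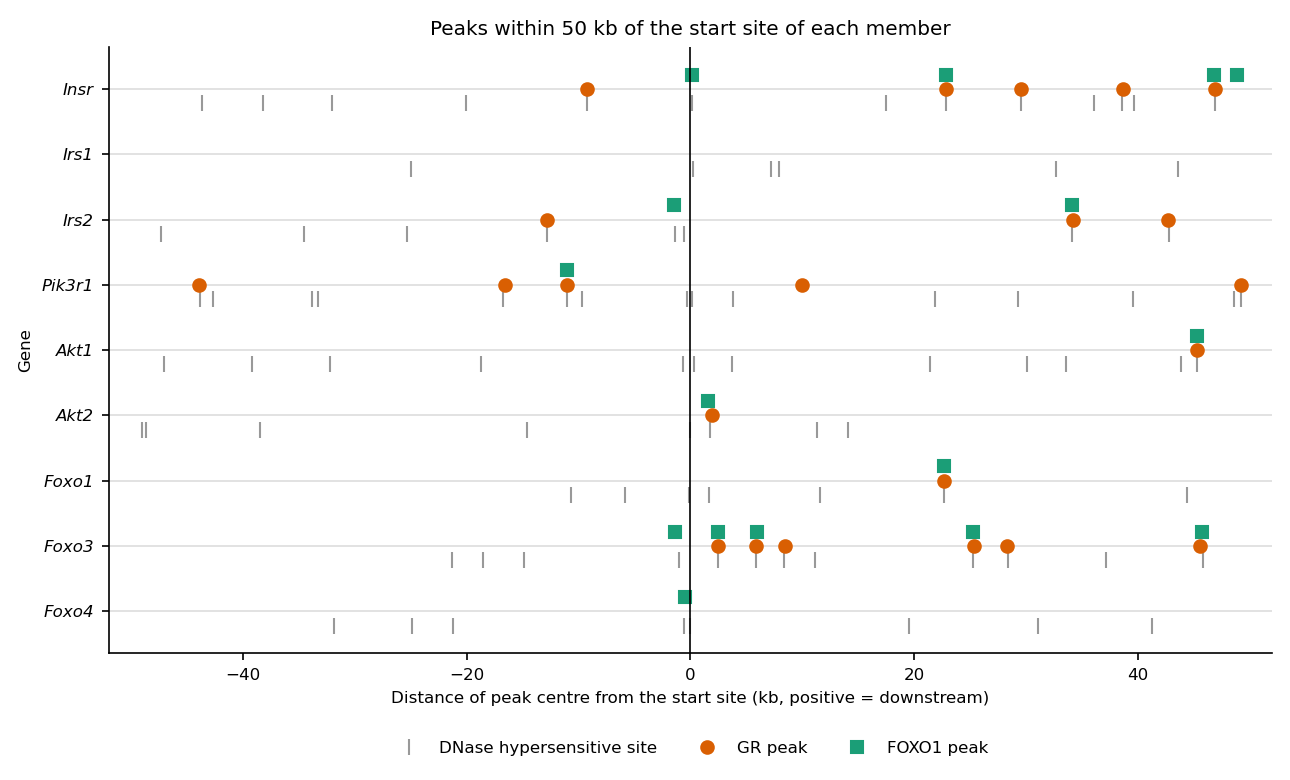
Position of GR peaks (circles), FOXO1 peaks (squares), and DHSs (ticks) relative to the start site of each of the 9 genes, in kb along the direction of transcription. Foxo3 has the most GR peaks, 6, and Irs1 has DHSs but neither GR nor FOXO1 peaks in the 50 kb window.

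The letters of each peak were searched on both strands for TGTTTAC, the core of the forkhead motif that FOXO proteins bind, and for TGTTCT, a half-site of the GR motif, which differ after their first 4 letters. The forkhead core was found in 4 of the 16 FOXO1 peaks, and in 18.8% of all FOXO1 peaks in the list. The GR half-site was found in 3 of the 22 GR peaks, against 27.7% of all GR peaks. The fourth forkhead match lay in the exonic Insr peak and is not printed. These peaks are shown because they hold the searched letters near genes whose RNA is described, in mm9 and on the plus strand, with the matched letters in capitals.
Akt2 intron, FOXO1 peak, chr7:28378061-28378240: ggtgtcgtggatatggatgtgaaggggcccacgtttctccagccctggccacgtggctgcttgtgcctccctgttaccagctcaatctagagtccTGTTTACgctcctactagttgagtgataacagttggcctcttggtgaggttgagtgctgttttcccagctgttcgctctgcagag
Insr intron, FOXO1 peak, chr8:3230678-3230857: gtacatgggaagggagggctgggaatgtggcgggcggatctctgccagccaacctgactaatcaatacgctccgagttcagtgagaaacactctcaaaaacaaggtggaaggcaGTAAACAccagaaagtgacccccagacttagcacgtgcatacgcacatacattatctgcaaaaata
Foxo3 intron, FOXO1 peak that overlaps a GR peak, chr10:41971163-41971342: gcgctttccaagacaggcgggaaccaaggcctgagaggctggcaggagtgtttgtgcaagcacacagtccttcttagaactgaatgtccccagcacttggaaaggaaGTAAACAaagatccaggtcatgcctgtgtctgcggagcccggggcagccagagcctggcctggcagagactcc
Pik3r1 intron, GR peak, chr13:102528126-102528305: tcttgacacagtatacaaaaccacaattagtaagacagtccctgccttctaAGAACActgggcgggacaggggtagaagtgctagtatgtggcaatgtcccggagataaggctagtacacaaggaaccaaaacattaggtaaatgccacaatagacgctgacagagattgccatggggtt
Upstream of Pik3r1, GR peak, chr13:102581994-102582173: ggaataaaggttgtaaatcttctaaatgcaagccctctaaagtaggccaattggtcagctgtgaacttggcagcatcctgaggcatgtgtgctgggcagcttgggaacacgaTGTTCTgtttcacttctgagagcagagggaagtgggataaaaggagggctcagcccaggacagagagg
Upstream of Insr, GR peak, chr8:3288738-3288917: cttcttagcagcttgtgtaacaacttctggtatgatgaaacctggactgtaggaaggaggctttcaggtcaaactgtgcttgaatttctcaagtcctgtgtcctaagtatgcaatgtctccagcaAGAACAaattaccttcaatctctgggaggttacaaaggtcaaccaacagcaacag
The peak downstream of Irs2 that GR and FOXO1 share is shown for the gene with the largest meal difference, and it holds neither motif.
Downstream of Irs2, GR peak, chr8:10974134-10974313: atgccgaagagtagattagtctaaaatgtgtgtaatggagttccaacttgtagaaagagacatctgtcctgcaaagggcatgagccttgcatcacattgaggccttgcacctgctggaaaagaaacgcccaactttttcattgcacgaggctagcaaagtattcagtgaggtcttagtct
The search covers these letters in these windows and says nothing of binding.

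The order of the 9 genes by RPKM, which is a level per transcript length, differed between experiments. In unfed mice given PBS, Insr stood at 18.1 ± 2.73 RPKM (mean ± SD, n = 4), Akt1 at 15.7 ± 1.31, and Pik3r1 at 15.5 ± 1.11, and the values of these neighbours overlapped. Foxo1 at 13.1 ± 0.207 and Foxo3 at 9.72 ± 1.59 followed without overlap, then Akt2 at 6.98 ± 0.583 and Foxo4 at 6.41 ± 0.459, which overlapped. Irs2 at 3.83 ± 0.845 was above Irs1 at 2.30 ± 0.152. After the meal, in fed mice given PBS, Pik3r1 led at 25.3 ± 3.48 RPKM and Irs2 was last at 1.21 ± 0.717. The GR fl/fl GFP livers differed in order, with Akt2 at 19.2 ± 1.76 and Akt1 at 19.1 ± 1.91 RPKM above the others. Exons of Irs1, Irs2, Pik3r1, and Foxo1 overlap exons of a gene on the opposite strand in the GENCODE annotation, and the strand counted is not given in the sources used here.

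Between ZT10 and ZT14 without food, a comparison of clock hours and of a longer fast, Irs2 RNA was 1.68 and 1.78 RPKM at ZT10 and 3.27 and 4.47 at ZT14. Irs1 was 2.61 and 2.29 RPKM at ZT10 and 3.63 and 4.59 at ZT14. Both receptor substrates were higher at ZT14 without overlap, as 56.2% of all genes did not overlap between these pairs of livers, by log2 fold changes of 0.96 (SE 0.16, adjusted p = 0.0182, limma) and 0.64 (SE 0.13, adjusted p = 0.0301), on the scale log2(RPKM + 0.5) used throughout, which understates changes of low genes. None of the 9 genes passed the threshold of 0.01 set for this experiment, and 1.16% of 10904 genes did. Without the library that held muscle markers, the differences were 0.76 for Irs2, 0.49 for Irs1, and -0.26 for Pik3r1. Insr was 12.4 and 13.4 RPKM at ZT10 and 9.88 and 10.9 at ZT14 (log2 -0.30, adjusted p = 0.112), and Pik3r1 was lower at ZT14 by log2 -0.45 (adjusted p = 0.0874). Of 37 other pathway genes tested, Ptprf, a receptor tyrosine phosphatase, fell by 0.90 (log2, adjusted p = 0.00648), and their median was -0.09 against -0.10 over all genes.

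The meal in uninjected mice was compared as ZT14-fed with ZT14-unfed, the latter being the same 2 libraries as above. Irs2 fell in fed livers, from 3.27 and 4.47 RPKM to 0.511 and 0.685 RPKM, and the groups were far apart. The log2 fold change was -1.98 (SE 0.16, 95% CI -2.36 to -1.60, adjusted p = 0.00184, limma), a fold of 0.253 on that scale. In bulk liver, a fall of RNA per cell and a lower share of the cells that hold it cannot be told apart. Pik3r1 moved the other way, from 9.95 and 7.54 to 16.9 and 17.4 RPKM, but at log2 0.94 (adjusted p = 0.0141) it did not pass the threshold of 0.01. Foxo1 was 2.99 and 4.12 RPKM unfed and 2.35 and 2.38 fed (log2 -0.49, adjusted p = 0.107), and Foxo3 was 5.90 and 7.04 unfed and 3.93 and 5.04 fed (log2 -0.49, adjusted p = 0.0887). Akt1 was 5.89 and 6.99 unfed and 7.32 and 8.36 fed (log2 0.27, adjusted p = 0.262). Irs1 stayed between 3.63 and 4.86 RPKM in all 4 livers. Thus 1 of the 9 genes passed, and 0.990% of 10904 genes did. Fed and unfed values did not overlap for 59.7% of all genes. Without ZT14-unfed replicate 2, the library with muscle markers, Irs2 was lower by log2 -1.78 (adjusted p = 0.00558), Pik3r1 higher by 0.76 (adjusted p = 0.0341), and Foxo1 lower by -0.29 (adjusted p = 0.397). Irs2 lost its call without ZT14-fed replicate 1 (-1.87, adjusted p = 0.0291) or 2 (-2.10, adjusted p = 0.0297). Without ZT14-unfed replicate 1, which leaves the library with muscle markers as the lone unfed liver and takes its spread from the other groups, Pik3r1 passed at log2 1.13 (adjusted p = 0.00319). None of 37 pathway genes passed, with a median of 0.13 against 0.12 over all genes.

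In mice injected with PBS, the meal again separated Irs2. Unfed livers held 3.86, 4.97, 2.97, and 3.52 RPKM and fed livers 0.548, 0.922, 1.15, and 2.22 RPKM, with no overlap, as for 13.5% of all genes. Irs2 fell by log2 1.41 (SE 0.35, adjusted p = 0.0350, limma) and was the 1 gene of the 9 that passed, where 3.13% of 11248 genes did. Pik3r1 was 14.9, 14.8, 15.2, and 17.2 RPKM in unfed livers and 27.4, 28.6, 24.4, and 20.8 in fed livers. Every fed value of Pik3r1 was above every unfed value, and its log2 fold change of 0.68 (SE 0.19) had an adjusted p of 0.0513. Foxo1 was 13.3, 13.0, 12.9, and 13.1 RPKM unfed and 10.3, 10.6, 11.3, and 10.1 fed, also without overlap (log2 -0.30, adjusted p = 0.0717). Akt1 differed by 0.36 (adjusted p = 0.123) and Foxo3 by -0.25 (adjusted p = 0.663), with overlapping groups.

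The libraries numbered 4 in the injected mice carry library numbers in the labels that stand apart from those of replicates 1 to 3, and without all of them Irs2 fell by log2 1.69 (adjusted p = 0.0104) and Pik3r1 rose by 0.81 (adjusted p = 0.00699). The call of Irs2 was lost when any 1 of fed PBS replicates 1 to 3 or unfed PBS replicates 1 to 4 was left out, with log2 fold changes from -1.51 to -1.20 and adjusted p from 0.0546 to 0.112. Pik3r1 passed without fed PBS replicate 4 (0.77, adjusted p = 0.0429) and also when 1 of 5 libraries of other groups was left out (0.68, adjusted p from 0.0211 to 0.0471), since the groups share 1 estimate of the spread. Of 40 pathway genes, 1 rose, Grb10, an adaptor that binds and inhibits the receptor (log2 0.94, adjusted p = 0.0212), and the median was 0.08 against 0.10 over all genes. The 5 Kupffer cell and macrophage markers summed to 40.5 to 48.6 RPKM in unfed and 56.7 to 82.5 RPKM in fed livers, and their part in these differences was not tested.

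Of the meal comparisons, that in lean mice on chow had the most of these genes past its threshold. The share of all genes that passed was also highest there, and the threshold for uninjected mice was stricter. The fitted log2 fold change was larger in size in uninjected than in lean mice for Irs2 and Pik3r1. It was larger in lean mice for Foxo1, Foxo3, Foxo4, Insr, and Akt1. These sizes were not tested against each other, and the experiments differed in RNA selection and RPKM level. Confidence intervals overlapped for Irs2 (-2.36 to -1.60 and -2.31 to -1.12), Pik3r1, Foxo4, and Akt1. They did not for Foxo1 (-0.87 to -0.11 and -1.57 to -0.89), Foxo3, and Insr. Foxo3 was 13.4, 12.4, and 14.4 RPKM in unfed lean livers and 4.69, 5.52, and 4.91 in fed lean livers. Foxo1 was 15.2, 15.4, and 13.4 RPKM unfed and 6.39, 5.13, and 6.45 fed. Irs2 was 5.08, 4.52, and 5.69 RPKM unfed and 1.01, 1.67, and 0.990 fed. In all 3 genes the fed values lay far below the unfed ones, and 43.3% of all genes did not overlap between these groups. Foxo3 fell by log2 1.33 (SE 0.14, adjusted p = 3.40e-04, limma), Foxo1 by 1.23 (SE 0.15, adjusted p = 5.99e-04), and Irs2 by 1.72 (SE 0.27, adjusted p = 0.00183). Insr, the receptor itself, was 16.4, 16.8, and 16.6 RPKM unfed and 12.2, 10.0, and 12.1 fed, and fell by log2 0.52 (SE 0.11, adjusted p = 0.00576). Foxo4 fell by 0.26 (SE 0.08, adjusted p = 0.0413), from 9.29, 9.97, and 9.54 to 7.88, 7.65, and 8.31 RPKM.

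Pik3r1 and Akt1 went the other way in the same lean livers. Pik3r1 was 10.99, 11.8, and 9.84 RPKM unfed and 17.97, 14.3, and 16.5 fed, and rose by log2 0.56 (SE 0.15, adjusted p = 0.0200, limma). Akt1 was 16.8, 19.8, and 20.5 RPKM unfed and 24.7, 29.2, and 24.0 fed, and rose by 0.44 (SE 0.14, adjusted p = 0.0393). Irs1 and Akt2 did not pass, with differences below 0.2. In all, 7 of the 9 genes passed, 2 upward and 5 downward, where 23.4% of 11431 genes did. The median of the 9 was -0.26 against 0.08 over all genes. Leaving out 1 library left 4 to 7 of the 9: the call of Akt1 was lost without any lean library or without fed DIO replicate 1 or 3 (log2 0.35 to 0.49, adjusted p from 0.0518 to 0.139), that of Foxo4 without any lean library, unfed DIO replicate 3, or fed DIO replicate 2 (log2 -0.29 to -0.23, adjusted p from 0.0504 to 0.128), and that of Pik3r1 without unfed lean replicate 3 or fed lean replicate 1 or 3 (log2 0.48 to 0.54, adjusted p from 0.0589 to 0.0750). With 1 library left out, 1727 to 3225 of all genes passed, against 2673 with all libraries. After scaling to a common median ratio, Akt1 was higher by 0.34 (adjusted p = 0.105). Of 41 pathway genes, 10 passed, 2 upward and 8 downward, with a median of -0.11. Of these, Trib3, a pseudokinase that binds AKT, fell by 1.56 (adjusted p = 0.0175), the kinase Sgk1 by 0.99 (adjusted p = 0.00261), and Rictor, a subunit of the kinase complex that phosphorylates AKT, by 0.79 (adjusted p = 0.00189), and Grb10 rose by 0.71 (adjusted p = 0.0307). Sums of the 5 endothelial markers were 54.3 to 65.6 RPKM unfed and 39.3 to 46.3 fed, and those of the 5 stellate cell markers were 58.2 to 94.9 and 42.2 to 57.7. Their part in the falls was not tested.

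In DIO mice, the meal moved 1 of the 9 genes past the threshold, where 7.65% of 11431 genes passed. The study's methods do not name the food that DIO mice ate at this meal. Obesity and food can therefore not be told apart between the diets. Insr was 21.0, 18.8, and 18.3 RPKM unfed and 16.0, 13.0, and 12.7 fed, and fell by log2 0.47 (SE 0.11, adjusted p = 0.0253, limma). This call was lost without unfed DIO replicate 1 (-0.41, adjusted p = 0.0636) or fed DIO replicate 2 (-0.42, adjusted p = 0.103) or 3 (-0.41, adjusted p = 0.0904). Irs2 was 2.59, 2.87, and 4.47 RPKM unfed and 2.01, 1.77, and 0.707 fed, without overlap, as for 27.8% of all genes (log2 -0.97, adjusted p = 0.0528), and it passed without fed DIO replicate 1 (-1.17, adjusted p = 0.0428). Foxo1 was 9.39, 13.7, and 9.93 RPKM unfed and 9.28, 7.32, and 6.81 fed (log2 -0.46, adjusted p = 0.0884). Foxo3 was 7.95, 9.31, and 6.33 RPKM unfed and 6.62, 5.62, and 4.71 fed (log2 -0.44, adjusted p = 0.0829), with overlap, and passed without unfed DIO replicate 3 (-0.58, adjusted p = 0.0299). Pik3r1 differed by 0.27 (adjusted p = 0.279) and Foxo4 by -0.21 (adjusted p = 0.129). None of 41 pathway genes passed, with a median of -0.01 against 0.02 over all genes.

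The difference between the meal effects of the 2 diets was tested by an interaction term, with the meal effect in lean mice taken from that in DIO mice. None of the 9 genes passed, and 0.744% of 11431 genes did. The largest was Foxo3, whose fall was smaller in DIO mice by log2 0.89 (SE 0.20, 95% CI 0.44 to 1.33, adjusted p = 0.0739, limma), followed by Foxo1 at 0.76 (95% CI 0.28 to 1.24, adjusted p = 0.141) and Irs2 at 0.75 (95% CI -0.10 to 1.59, adjusted p = 0.393). Without unfed DIO replicate 2, which had the highest Foxo1 and Foxo3 of its group, both passed, at 1.01 for Foxo3 (adjusted p = 0.0395) and 0.93 for Foxo1 (adjusted p = 0.0485). Akt1 differed by -0.41 (adjusted p = 0.348) and Pik3r1 by -0.28 (adjusted p = 0.556). Sgk1 passed among 41 pathway genes, at 1.25 (adjusted p = 0.0425), with a list median of 0.05 against -0.07 over all genes.

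Between diets at the same feeding state, unfed DIO livers had less Foxo3 than unfed lean livers, 7.95, 9.31, and 6.33 against 13.4, 12.4, and 14.4 RPKM. The fall was log2 0.75 (SE 0.14, adjusted p = 0.0172, limma), and Foxo3 was the 1 gene of the 9 that passed, where 5.22% of 11431 genes did. This was lost without unfed lean replicate 1 (-0.75, adjusted p = 0.0577) or 3 (-0.70, adjusted p = 0.0557). Irs2 was lower without overlap by -0.58 (adjusted p = 0.230), Foxo1 lower by -0.41 (adjusted p = 0.144), Pik3r1 higher by 0.32 (adjusted p = 0.217), and Insr higher by 0.21 (adjusted p = 0.254). Unfed DIO and lean values did not overlap for 22.9% of all genes. Sgk1, the 1 of 41 pathway genes that passed, fell by 1.13 (adjusted p = 0.00659), and the list median was 0.01 against 0.07. The 5 endothelial markers summed to 54.3 to 65.6 RPKM in unfed lean and 30.9 to 39.3 RPKM in unfed DIO livers, and their part was not tested. In fed livers, none of the 9 genes differed between diets past the threshold, and 0.507% of 11431 genes did. Akt1 was 18.4, 20.6, and 18.3 RPKM in fed DIO and 24.7, 29.2, and 24.0 in fed lean livers (log2 -0.43, adjusted p = 0.135), Foxo1 differed by 0.35 (adjusted p = 0.239), and Insr by 0.27 (adjusted p = 0.197). None of 41 pathway genes passed in fed livers, with a median of 0.12 against 0.01. The 4 obesity comparisons share groups and are given side by side.

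**Figure D2:**
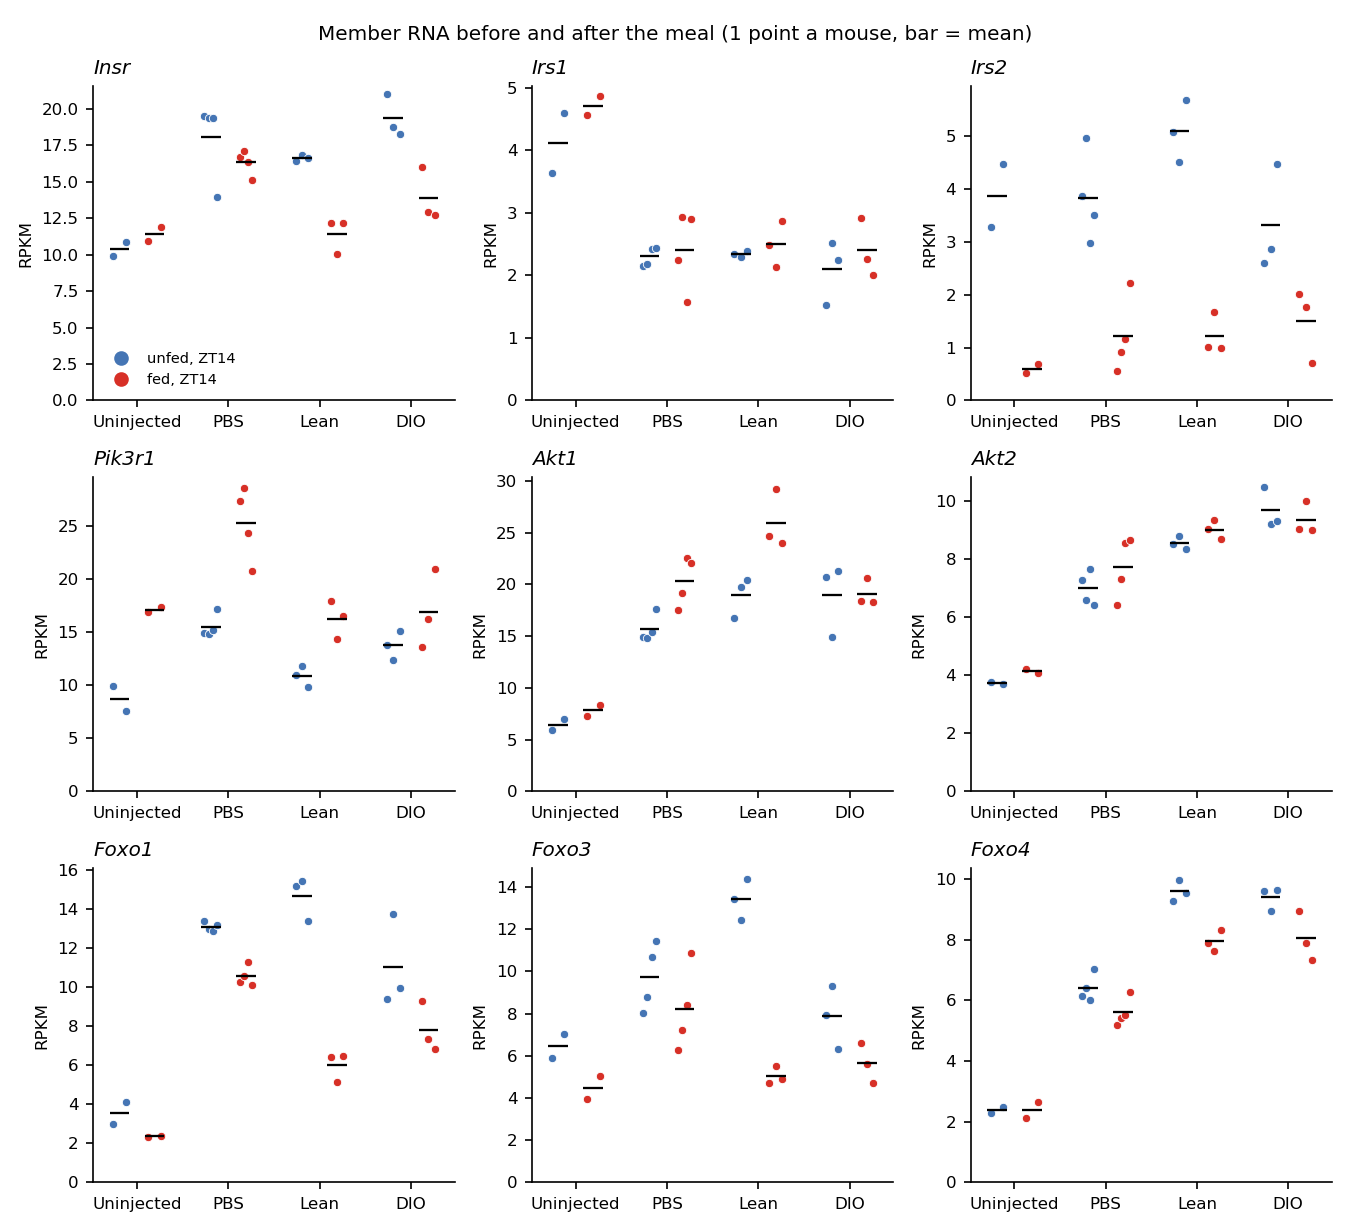
RPKM of the 9 genes in unfed (blue) and fed (red) livers at ZT14 in uninjected mice (n = 2 per group), mice given PBS (n = 4), lean mice, and DIO mice (n = 3), with 1 point per mouse and bars at the means. Irs2 has a lower mean in fed livers in each of the 4 settings, whereas Foxo1 and Foxo3 are farthest apart in lean mice.

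Ratios within a library compare genes at one scale and are given as a description. The ratio of Irs2 to Irs1 was 1.23 to 2.27 in unfed and 0.244 to 0.765 in fed mice given PBS. It was 1.97 to 2.39 in unfed lean and 0.345 to 0.784 in fed lean livers, and 1.14 to 1.99 and 0.352 to 0.781 in unfed and fed DIO livers. In uninjected mice, it was 0.901 to 0.974 unfed and 0.112 to 0.141 fed. Irs2 RNA thus had the higher RPKM of the pair in unfed, and Irs1 RNA in fed, livers of the PBS, lean, and DIO mice. These ratios say nothing of the proteins. Foxo1 made up 35.9% to 40.8% of the summed FOXO RPKM in unfed lean and 28.1% to 33.7% in fed lean livers, and the sum was 37.3 to 37.9 RPKM unfed and 18.3 to 19.7 RPKM fed.

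Dex given before the meal tested the effect of an added glucocorticoid on the fed liver. Foxo1 was 14.8, 13.1, 15.0, and 14.3 RPKM after dex and 10.3, 10.6, 11.3, and 10.1 after PBS, without overlap, as for 10.5% of all genes. It rose by log2 0.42 (SE 0.09, adjusted p = 0.0121, limma), the 1 gene of the 9 that passed, where 3.19% of 11248 genes did. Irs1 was 1.04, 1.53, 1.87, and 1.68 RPKM after dex and 2.24, 2.93, 1.57, and 2.90 after PBS (log2 -0.51, adjusted p = 0.0848), and passed without fed PBS replicate 3 (-0.67, adjusted p = 0.0218). Foxo3 was higher by 0.52 with overlap (adjusted p = 0.298). The other 6 genes differed by less than 0.2. Of 40 pathway genes, Sgk1, a kinase related to AKT and a known glucocorticoid target, rose by 1.92 (adjusted p = 7.61e-04), and Grb14, an adaptor that inhibits the receptor, fell by 0.34 (adjusted p = 0.0487). Their median was -0.11 against -0.10 over all genes. The 4 comparisons against fed PBS mice share those 4 libraries and are therefore not independent.

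S961 before the meal blocks the receptor. Pik3r1 was 17.8, 13.9, 16.3, and 9.01 RPKM after S961 and 27.4, 28.6, 24.4, and 20.8 after PBS, without overlap, as for 6.48% of all genes. It fell by log2 0.84 (SE 0.19, adjusted p = 0.0241, limma), the 1 gene of the 9 that passed, where 1.89% of 11248 genes did. This call was lost without any of fed PBS replicates 1 to 3 or S961 replicate 2 or 4, with log2 fold changes from -0.85 to -0.64 and adjusted p from 0.0507 to 0.0912. Irs2 was 1.31, 2.84, 0.866, and 4.82 RPKM after S961 (log2 0.68, adjusted p = 0.406). Its values ran from the range of fed to that of unfed mice given PBS. Foxo3 was 6.95, 5.98, 2.72, and 9.40 RPKM after S961 (log2 -0.45, adjusted p = 0.489), and Insr was 18.7, 21.6, 22.7, and 15.9 (log2 0.25, adjusted p = 0.409). Gsk3b, a kinase that AKT inhibits, fell by 0.40 (adjusted p = 0.0470) as the 1 of 40 pathway genes that passed, with a median of -0.11 against -0.08. The Kupffer cell and macrophage markers summed to 35.0 to 55.8 RPKM after S961 and 56.7 to 82.5 in fed PBS livers, and their part in the fall of Pik3r1 was not tested.

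After dex and S961 together, 3 of the 9 genes differed from fed PBS mice, where 10.6% of 11248 genes did. Foxo1 was 17.5, 16.3, 15.9, and 18.1 RPKM and rose by log2 0.66 (SE 0.09, adjusted p = 1.72e-04, limma). Irs1 was 0.959, 1.25, 1.09, and 1.01 RPKM and fell by 0.86 (SE 0.16, adjusted p = 0.00215). Akt1 was 14.8, 14.1, 15.1, and 16.6 RPKM, against 17.5, 19.2, 22.5, and 22.03 after PBS, and fell by 0.40 (SE 0.13, adjusted p = 0.0452). The groups did not overlap for these 3 genes, as for 17.1% of all genes. The median of all genes was -0.14 here and 0.00 after median-ratio scaling, which left Foxo1 at 0.81 (adjusted p = 2.48e-05) and Irs1 at -0.74 (adjusted p = 0.00571), but Akt1 at -0.25 (adjusted p = 0.280). Akt1 also did not pass with quantile scaling (-0.33, adjusted p = 0.155), without the filter (adjusted p = 0.0798), without the variance trend (adjusted p = 0.0503), or in the compared groups alone (adjusted p = 0.0558). The call of Akt1 was also lost without 1 of 13 libraries (log2 -0.45 to -0.35, adjusted p from 0.0502 to 0.131), whereas those of Foxo1 and Irs1 were kept without any 1 library. Irs2 was 1.22, 2.94, 1.89, and 2.38 RPKM (log2 0.65, adjusted p = 0.260), Foxo3 differed by 0.39 (adjusted p = 0.381), and Pik3r1 by -0.42 (adjusted p = 0.156), the last passing without the libraries numbered 4 (-0.49, adjusted p = 0.0381). Of 40 pathway genes, 2 rose, Trib3 by 1.36 (adjusted p = 0.00303) and Sgk1 by 1.20 (adjusted p = 0.00860), and 3 fell, Gsk3b by 0.56 (adjusted p = 0.00180) and Ptprf by 0.51 (adjusted p = 0.0275) among them. Their median was -0.15. The Kupffer cell and macrophage markers summed to 43.6 to 49.9 RPKM with both agents and 56.7 to 82.5 in fed PBS livers, and their part in these differences was not tested.

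Fed mice given both agents were also compared with unfed mice given PBS. Irs1 fell by log2 0.83 (SE 0.16, adjusted p = 0.00859, limma), from 2.16, 2.19, 2.43, and 2.44 RPKM, and Foxo1 rose by 0.36 (SE 0.09, adjusted p = 0.0363), from 13.3, 13.0, 12.9, and 13.1 RPKM. These 2 of the 9 genes passed, where 2.32% of 11248 genes did. Foxo1 lost its call without any 1 library of either group (log2 0.33 to 0.39, adjusted p from 0.0532 to 0.121). Irs2 was lower by -0.76 (adjusted p = 0.401) and Foxo4 by -0.36 (adjusted p = 0.374), both without overlap, as for 10.6% of all genes, and Pik3r1 was higher by 0.25 (adjusted p = 0.704). Of 40 pathway genes, Sgk1 rose by 1.33 (adjusted p = 0.0127) and Gsk3b fell by 0.44 (adjusted p = 0.0229), with a median of -0.07 against -0.04 over all genes.

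An interaction term asked whether the effect of dex in fed mice differed with S961. By limma, 0% of 11248 genes passed, the 9 genes included, and 513 genes had an unadjusted p under 0.05. Foxo1 was one of them, so its term is not set apart from chance. Its dex effect was larger under S961 by log2 0.37 (95% CI 0.11 to 0.64, unadjusted p = 0.00785, adjusted p = 1.00), and its mean went from 9.62 ± 1.28 RPKM with S961 alone to 16.9 ± 0.996 with both (n = 4 each). The term was 0.32 for Foxo3 and 0.26 for Pik3r1, both with adjusted p = 1.00. None of 40 pathway genes passed, with a median of 0.06 against 0.03.

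**Figure D3:**
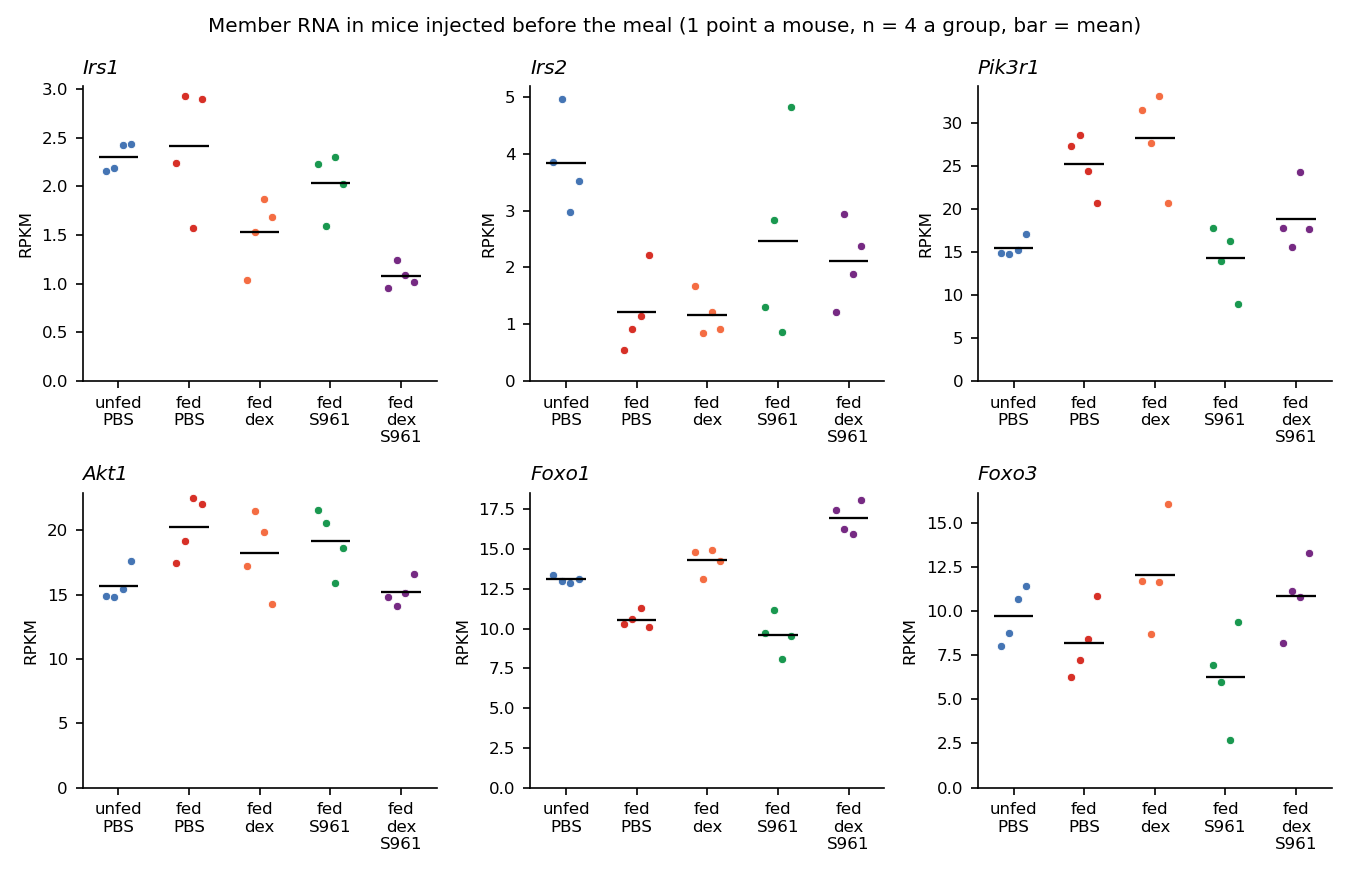
RPKM of 6 of the genes in unfed mice given PBS and in fed mice given PBS, dex, S961, or both, with 1 point per mouse (n = 4 per group) and bars at the means. Foxo1 is highest with both agents, between 15.9 and 18.1 RPKM, and Irs1 lowest, between 0.959 and 1.25 RPKM.

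In GR fl/fl mice, the targeted gene was checked first. Nr3c1 was 12.8, 14.5, 13.2, and 16.2 RPKM with GFP and 3.93, 4.23, 4.14, and 5.35 with CRE, and fell by log2 1.58 (SE 0.12, adjusted p = 6.83e-05, limma). None of the 9 insulin signaling genes passed in unfed mice, where 6.68% of 11646 genes did. Foxo1 was 12.3, 9.71, 9.62, and 10.2 RPKM with GFP and 7.30, 7.95, 9.94, and 7.24 with CRE (log2 -0.35, 95% CI -0.63 to -0.08, adjusted p = 0.132). Irs1 was 2.12, 1.88, 1.89, and 1.93 with GFP and 3.45, 1.87, 2.83, and 2.99 with CRE (log2 0.40, 95% CI 0.05 to 0.74, adjusted p = 0.185). CRE replicate 3 reached into the GFP range of Foxo1, and CRE replicate 2 lay just below the GFP values of Irs1, apart from the other 3 CRE livers.

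Irs2 was 3.58, 4.52, 2.46, and 5.86 RPKM with GFP and 4.67, 5.46, 9.29, and 3.03 with CRE (log2 0.37, 95% CI -0.30 to 1.03, adjusted p = 0.559). Akt2 was 19.3, 17.8, 18.1, and 21.7 RPKM with GFP and 22.1, 23.5, 22.2, and 21.7 with CRE (log2 0.22, 95% CI 0.02 to 0.41, not called), where the lowest CRE value was just above the highest GFP value. Values with CRE and GFP did not overlap for 12.8% of all genes. Akt1 differed by 0.22 (adjusted p = 0.209), Insr by 0.29 (adjusted p = 0.373), and Foxo3 by -0.20 (95% CI -0.47 to 0.08). Of 40 pathway genes, Ptprf rose by 0.51 (adjusted p = 0.0207) and Deptor, an inhibitor of mTOR, by 0.44 (adjusted p = 0.0237), with a median of 0.12 against 0.08 over all genes. The erythroid markers Hba-a1 and Alas2 summed to 137 to 176 RPKM with GFP and 206 to 352 with CRE, and their part in these values was not tested.

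In fed mice given dex, the targeted genes of the IRSdKO livers differed in how well the table showed their loss. Irs1 was 2.21, 4.70, 4.73, and 4.50 RPKM in IRSfl livers and 0.149, 0.155, 0.321, and 0.170 in IRSdKO livers, and fell by log2 2.66 (SE 0.25, adjusted p = 9.17e-04, limma). Irs2 was 0.614, 1.63, 5.61, and 0.929 RPKM in IRSfl and 0.272, 1.00, 0.932, and 0.886 in IRSdKO livers, and these ranges overlapped (log2 -0.79, 95% CI -1.92 to 0.34, adjusted p = 0.308). Irs2 RNA alone therefore does not separate the 2 genotypes, and the deleted part of each gene was not examined, as the table gives 1 value per transcript.

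Of the 7 genes that were not targeted, 1 passed, where 17.4% of 12963 genes did. Pik3r1 was 45.5, 35.3, 44.5, and 45.1 RPKM in IRSfl and 22.2, 17.8, 16.5, and 14.7 in IRSdKO livers, and fell by log2 1.24 (SE 0.14, adjusted p = 0.00174, limma), a fold of 0.422 on that scale. Its groups lay far apart. Insr was 16.9, 15.4, 18.6, and 17.2 RPKM in IRSfl and 18.7, 22.5, 20.5, and 26.2 in IRSdKO livers, without overlap, as for 21.7% of all genes (log2 0.35, adjusted p = 0.0638). Foxo4 was 17.3, 14.9, 13.6, and 15.3 in IRSfl and 20.8, 18.7, 16.7, and 19.6 in IRSdKO livers (log2 0.30, adjusted p = 0.0740). Foxo1 was 18.3, 17.8, 17.0, and 15.0 RPKM in IRSfl and 3.29, 16.0, 19.9, and 17.8 in IRSdKO livers (log2 -0.50, adjusted p = 0.503), so that replicate 1 alone was low. Akt1, Akt2, and Foxo3 differed by less than 0.2.

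IRSdKO replicate 1 also had the lowest Irs2 and Foxo3 of its group. It held 351 RPKM of Igfbp1, a FOXO1 target, against 509 to 559 in the other IRSdKO and at most 73.7 in the IRSfl livers. Without this library, Foxo1 differed by log2 0.07 (adjusted p = 0.694), Insr rose by 0.42 (adjusted p = 0.0246), Pik3r1 fell by 1.35 (adjusted p = 1.59e-04), and Irs1 fell by 2.62 (adjusted p = 4.06e-04). Then 2 of the 7 passed, where 3020 of 12935 genes did, against 2250 with all libraries. Of 43 pathway genes, 4 rose and 1 fell, and the median was 0.07 against 0.03 over all genes. Among them, Trib3 rose by 1.94 (adjusted p = 0.00677), Sgk1 by 1.91 (adjusted p = 0.00806), and Rictor by 0.63 (adjusted p = 0.0125), and Mlst8, a subunit of both mTOR complexes, fell by 0.44 (adjusted p = 0.0426). Kupffer cell and macrophage markers summed to 125 to 227 RPKM in IRSfl and 214 to 280 in IRSdKO livers, and their part was not tested.

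**Figure D4:**
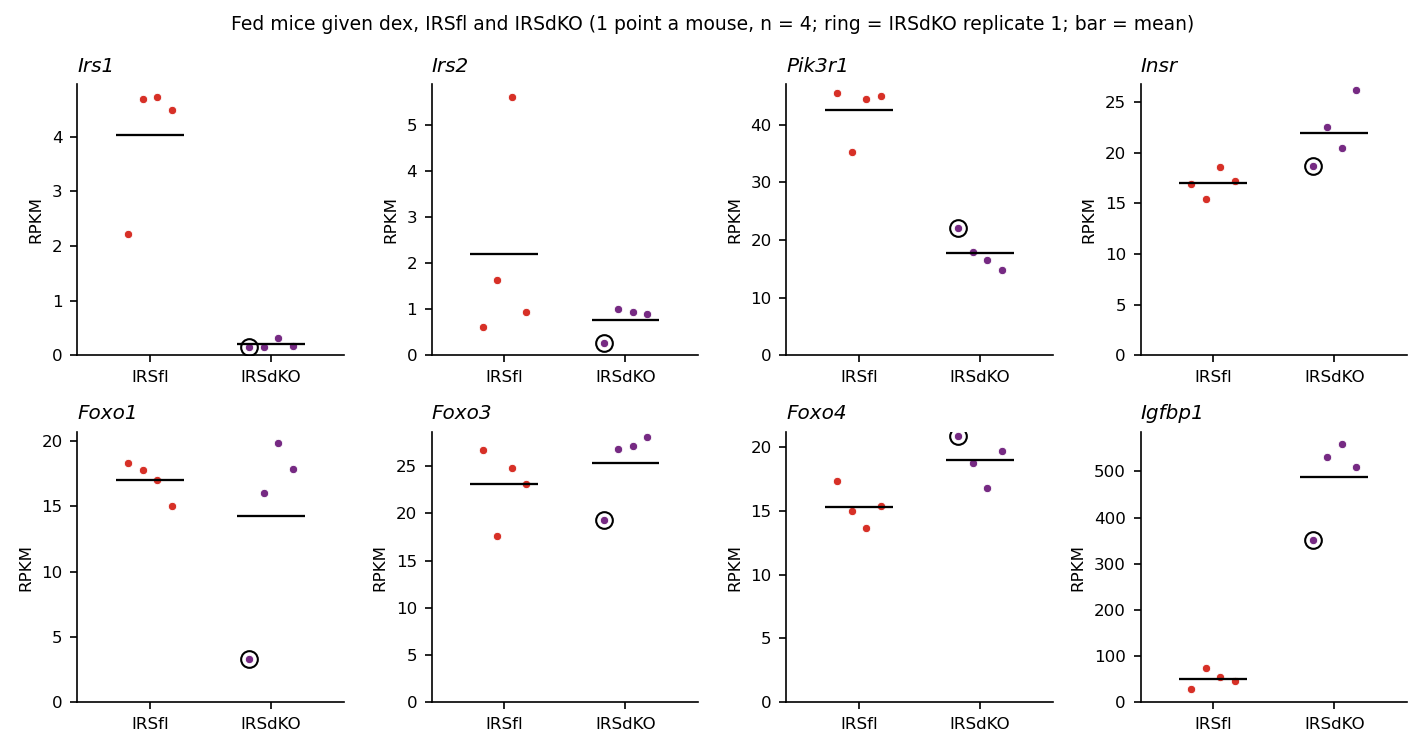
RPKM in fed IRSfl and IRSdKO livers, all given dex, with 1 point per mouse (n = 4 per group) and bars at the means, for 7 of the genes and for Igfbp1. Irs1 and Pik3r1 separate the genotypes, Irs2 does not, and the ringed IRSdKO replicate 1 has Foxo1 at 3.29 RPKM.

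Side by side, Pik3r1 was higher in fed livers in all 4 meal comparisons, by 0.94, 0.68, 0.56, and 0.27 (log2), of which the third passed, and fell with S961 and in IRSdKO livers. Irs2 went the opposite way with the meal, at -1.98, -1.41, -1.72, and -0.97, of which the first 3 passed. Akt2 passed in none of the 13 comparisons of 2 groups, with log2 differences of at most 0.22 in size.

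**Figure D5:**
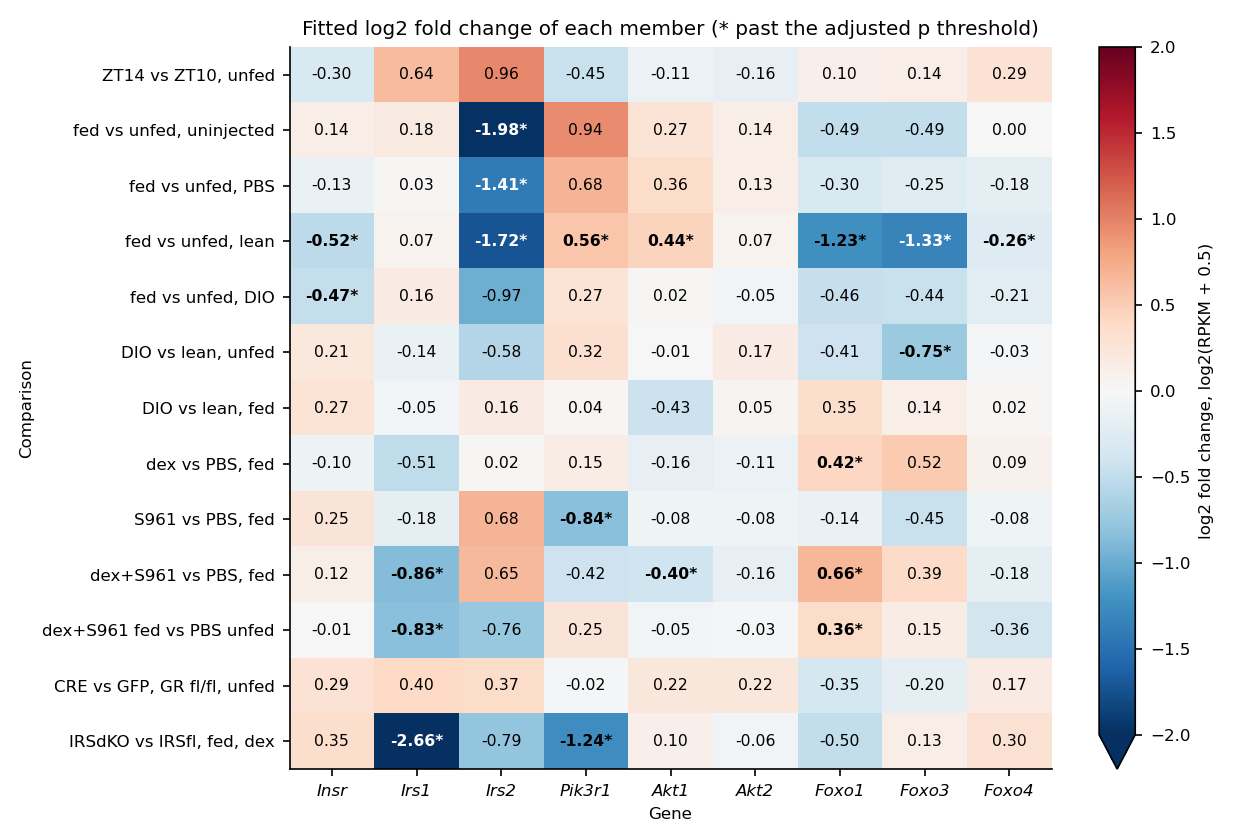
Fitted log2 fold change of each gene (columns) in the 13 comparisons of 2 groups (rows) on the log2(RPKM + 0.5) scale, with blue for lower, red for higher, and stars for values past the adjusted p threshold of that experiment. The colours end at 2.0 on either side, beyond which only Irs1 in IRSdKO livers lies, and the Irs2 and Pik3r1 columns have opposite signs in the 4 meal comparisons.

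Across the 54 libraries, after each experiment's mean was taken out of log2(RPKM + 0.5), the closest pair among the 9 genes was Foxo1 and Foxo3 (Pearson r = 0.64), and the most opposed was Irs2 and Pik3r1 (r = -0.47). These points share groups, libraries, and depth, and the values are descriptions. Among the 7160 genes that averaged 2 RPKM or more in every experiment, the 5 most like Irs2 were Zhx3 (0.71), Zpr1 (0.69), Cnppd1 (0.68), Pnrc1 (0.67), and Lpin2 (0.67). Foxo3 was most like Klf15 (0.81), Klhl21 (0.78), and Mknk2 (0.77). Pik3r1 was most like Map2k3 (0.81), Slc11a2 (0.79), and St3gal4 (0.78). For Insr, the closest were Cnot6l (0.84), Dsc2 (0.82), and Hipk3 (0.82), and for Irs1, Nat8f5 (0.80), Clcn2 (0.76), and Prxl2b (0.75). The Irs1 values include the IRSdKO experiment, where Irs1 was targeted and ran from 0.149 to 4.73 RPKM. Irs1 and Irs2 did not themselves average 2 RPKM in every experiment. Foxo1 had Ap4b1 (0.67), Cpeb2 (0.67), and Adcy9 (0.66) nearest. The nearest of Akt1 was Tgm1 (0.73), that of Akt2 Zdhhc9 (0.68), and that of Foxo4 Rpl38 (0.63).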

How the data were processed

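Liver RNA was measured in 54 of the 90 samples of the series, 16 groups in 5 experiments. The authors aligned reads to mm9 with STAR, normalized them to RPKM per RefSeq transcript, and called regulated genes with DESeq2. RPKM corrects for depth and length and not for a few abundant genes. The deposited RPKM table holds 35707 IDs, of which 35402 had a symbol, and 0 value columns were unused. The authors called peaks with HOMER, and the deposited lists hold positions only (coordinates, no signal). Counting tool and strand are not given in the sources used here.

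The 9 genes, the 46 pathway genes, and the marker lists were chosen with earlier results of these data known. All 9 genes are named, up to 4 pathway genes per comparison past the threshold with the largest change, and the nearest 5 genes to Irs2 and up to 3 to each other gene. Igfbp1 and Nr3c1 are given as checks. Each experiment was fitted apart with limma 3.58.1 (R 4.3.3) on log2(RPKM + 0.5), with a variance trend, for genes averaging 0.5 RPKM or more in the experiment, no replicate block, and Benjamini-Hochberg adjustment over all genes. Thresholds were 0.01 in the NRF experiment and 0.05 elsewhere. The fit was tried on simulated data with independent noise and no batch, outlying library, or shift in scale. That trial does not cover such features of the real libraries, and its outcome is not given here. Peaks were joined to start sites within 50 kb with Python 3.11.15, pandas 2.3.3, numpy 2.4.6, and pysam 0.24.0. The alternatives changed the pseudocount (0.1 or 1), the filter (none or 2 RPKM), and the rest in turn: median-ratio and quantile scaling, no trend, all RefSeq IDs, a replicate block, only the compared groups, no library numbered 4, peak windows (20 or 100 kb), each other RefSeq ID of a gene, and omission of single libraries. The fit without IRSdKO replicate 1 is given beside results since its Foxo1 value was seen to stand apart. Depth is inferred from steps between low RPKM values of hairpin rows, of which at least 99.3% per library lay within 0.1 of a whole step, so precision for genes near the filter is unknown beyond that. H3K27Ac and signal per condition were not used here.

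Same-numbered libraries deviated together by r = 0.05 to 0.51 between unfed and fed PBS mice, those numbered 4 by 0.49 to 0.61 in the 5 comparisons of injected groups, and in no comparison did every pair exceed 0.1, so the numbers were not taken as pairs. No 2 libraries of a group held the same values, and the highest correlation within a group was 0.9916.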

Additional observations from a re-analysis of the deposited data

Results flagged for a closer look

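Among 81 sets of 4 values (1 gene in 1 group), 9 had a single liver far from the other 3 by Dixon's test, where chance gives about 1 in 20. In the IRSdKO experiment these were Irs1 at 2.21 RPKM in IRSfl replicate 1 and at 0.321 RPKM in IRSdKO replicate 3, Irs2 at 0.272 and Foxo3 at 19.3 RPKM in IRSdKO replicate 1, Pik3r1 at 35.3 RPKM in IRSfl replicate 2, and Akt1 at 47.1 RPKM in IRSfl replicate 4. Elsewhere they were Insr at 13.97 RPKM in unfed PBS replicate 4, Akt1 at 21.9 RPKM in GR fl/fl GFP replicate 4, and Foxo4 at 3.18 RPKM in S961 replicate 3. Foxo1 at 3.29 RPKM in IRSdKO replicate 1 did not exceed the critical value, as the other 3 livers spread from 16.0 to 19.9 RPKM.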

How the results depend on the processing

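Numbers of the 9 genes that passed (7 in IRSdKO) changed as follows. In the uninjected meal, 1 became 0 without the filter and 2 with a filter of 2 RPKM or at an adjusted p of 0.05, and 0 to 2 with 1 library left out; between clock hours, 0 became 2 at an adjusted p of 0.05. In the PBS meal, 1 became 0 without the filter, 2 with the filter of 2 RPKM, median-ratio scaling, quantile scaling, the compared groups alone, or no library numbered 4, and 0 to 3 with 1 library left out. The paired analysis, with the replicate block, gave 3 there. With dex, 1 became 0 in the compared groups alone and was 1 to 2 with 1 library left out. With S961, 1 became 0 without the filter or in the compared groups alone and was 0 to 1 with 1 library left out. With both agents against unfed mice, 2 became 1 with the filter of 2 RPKM or no library numbered 4, and 1 to 2 with 1 library left out. With both agents against fed PBS, 3 became 2 without the filter, with the filter of 2 RPKM, which leaves Irs1 out of the injected mice, with either scaling, without the trend, or in the compared groups alone, and 4 with no library numbered 4. In IRSdKO livers, 1 was 1 to 2 with 1 library left out. In lean mice, 7 was 4 to 7, and in the diet interaction 0 was 0 to 2. In the DIO meal, 1 became 2 with a pseudocount of 1, the filter of 2 RPKM, or all RefSeq IDs, 0 without the filter or in the compared groups alone, and 0 to 2 with 1 library left out. Between unfed DIO and lean, 1 became 0 without the filter or in the compared groups alone, and 0 to 1 with 1 library left out; between fed DIO and lean, 0 became 1 in the compared groups alone. The number of all genes that passed moved as well. At an adjusted p of 0.05 it went from 127 to 980 for clock hours and 108 to 737 in the uninjected meal. In the compared groups alone it went from 359 to 87 with dex and 213 to 24 with S961. In the obesity experiment it went there from 875 to 63 (DIO meal), 597 to 35 (unfed diets), and 58 to 720 (fed diets). With 1 library left out it ran from 86 to 510 in the PBS meal. Causes were not tested.

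Peaks within 20 and 100 kb numbered 9 and 46 for GR, 8 and 32 for FOXO1, and 39 and 163 for DHSs. Of the 75 gene differences that passed or reached 0.2, 1 changed sign, Foxo1 in IRSdKO livers, with -0.74 to 0.07 when 1 library was left out. Over 1794 alternative values of these, 1683 kept direction and side of the threshold, 80 lost and 30 gained a call. Only the 20 differences that passed could lose a call, so the 80 fall on these alone. Akt1 lost its call in 18 of 33 alternatives with both agents against fed PBS and in 12 of 24 in the lean meal. The other 60 differences were below 0.2, and 27 of them changed sign in an alternative. The replicate block also ended the lean meal calls of Akt1 (adjusted p = 0.0668) and Foxo4 (adjusted p = 0.0691) and made Pik3r1 (adjusted p = 0.0169) and Foxo1 (adjusted p = 0.0452) pass in the PBS meal, and the number of all genes called moved there from 352 to 928, with dex from 359 to 968, with S961 from 213 to 431, with both agents from 1192 to 2040, against unfed mice from 261 to 523, for clock hours from 127 to 10, in the uninjected meal from 108 to 40, in IRSdKO from 2250 to 1440, in fed DIO from 58 to 11, and for the diet interaction from 85 to 46. No filter ended 8 calls. Median-ratio scaling moved the share of calls that were higher from 32.3% to 61.5% for clock hours, 57.4% to 40.4% for the uninjected meal, 81.5% to 51.6% for the PBS meal, 31.5% to 58.8% for dex, 49.3% to 70.1% for S961, 25.4% to 58.2% for both agents, 56.7% to 70.1% for both against unfed, 66.7% to 44.3% for GR loss, 68.9% to 49.7% in lean mice, 67.5% to 45.9% in unfed DIO, and 56.5% to 71.3% for the diet interaction. Depth here was read from steps between values. Against the read counts listed in the study's supplement, the steps gave too many reads in the GR fl/fl and too few in the IRSdKO experiment.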
